A study of Mus musculus with 6 samples.

Results

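Target genes of p53 were followed on 6 microarrays of whole mouse lung buds, dissected at embryonic stage E12.5. The transcription factor p53, encoded by Trp53, is held at a low level in unstressed cells by the ubiquitin ligase Mdm2, which is itself a p53 target and so closes a negative loop. When DNA damage, stalled ribosome assembly or other stress frees p53, it binds DNA and raises genes that halt the cell cycle, genes that drive cell death and genes that help repair DNA. In embryos an overactive p53 is known to cost progenitor cells, and loss of Mdm2 is lethal unless p53 is removed as well.

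The gene list holds 34 well-known p53 targets, Trp53 itself among them. A member was measured where a probe set carried that gene symbol and no other in the platform annotation, and this held for 30 of the 34 among the 22180 genes on the array. Each of the 30 had a single such probe set. Gadd45a and Ddb2 share their probe sets with another gene, and no probe set was matched to Trp53 or Bax, so these 4 were not analysed here. By role the measured genes were 3 of the p53 loop and its modulators, 9 of arrest and growth control, 11 of cell death, 4 of DNA repair and 3 of other function. No filter on low values was applied.

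The mutant group was 3 lungs with floxed Fzd2 on both chromosomes and 1 Shh cre allele (Fzd2Flox/Flox; Shh cre/+), and the control group was 3 lungs with the Cre allele alone (Shh cre/+). Every array thus carried a Cre allele at the Shh locus, which is active in lung epithelium and not in the mesenchyme around it, and neither compartment was measured alone. The stated question was which genes depend on the Wnt receptor Fzd2 in the lung epithelium. The labels call the arrays biological replicates, and do not say whether embryos were pooled. Values are RMA log2 expression, where a difference of 1 is a doubling, with array medians of 7.29 to 7.32. RMA makes the distributions of the arrays alike, so that a change is always relative to the other genes, and the number of arrays limits the precision.

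Fzd2 stood at 9.67, 9.07 and 9.54 in mutant replicates 1 to 3, against 9.57, 9.82 and 9.75 in control replicates 1 to 3, so the groups overlapped (log2 difference -0.29, SE 0.15, limma adjusted p = 0.475). The labels of the mutants are therefore only weakly checked by their targeted gene. Marker lists also differed between arrays. All 10 epithelial marker genes had lower means in mutants, and their summed level was 13.15 to 13.22 on the log2 scale in mutants against 13.44 to 13.52 in controls. Of 6 leukocyte markers 5 had higher means, with summed levels of 11.001 to 11.13 in mutants against 10.77 to 10.81 in controls, and all 4 neuron markers had higher means, with summed levels of 9.64 to 9.95 in mutants against 9.41 to 9.51 in controls. Of 8 adipose genes 7 lay above all controls in mutant replicate 2, where their summed level was 13.94, against 10.51 and 10.42 in mutant replicates 1 and 3 and 10.30 to 10.83 in controls. Genes of the small intestine summed to 12.10 in control replicate 1, against 9.24 to 9.32 in mutants and 9.08 and 9.23 in the other controls. The Y-linked genes were low in control replicate 2 only (7.23, against 11.99 to 12.04 in mutants and 12.07 and 12.12 in the other controls). In whole organs fewer cells of a type and less RNA per cell cannot be told apart.

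The upstream sequence of 5 genes is shown. The expression results turn on 3 of them with higher means in mutants (Ccng1, Eda2r, Cdkn1a) and on 1 that was extreme in a single array (Mdm2). Ei24 had a small difference and was chosen because it carries the motif right at its start, so the 5 do not show how often members carry it. Each sequence is the 250 bases before a RefSeq transcript start on GRCm38.p6, written 5′ to 3′ on the strand of the gene. Capitals mark p53 half-sites, which are 10 bases made of 3 purines, a C, 2 bases that are A or T, a G and 3 pyrimidines. The pattern is its own reverse complement, so a search of 1 strand covers both.
Ccng1, chr11:40755287-40755536, minus strand: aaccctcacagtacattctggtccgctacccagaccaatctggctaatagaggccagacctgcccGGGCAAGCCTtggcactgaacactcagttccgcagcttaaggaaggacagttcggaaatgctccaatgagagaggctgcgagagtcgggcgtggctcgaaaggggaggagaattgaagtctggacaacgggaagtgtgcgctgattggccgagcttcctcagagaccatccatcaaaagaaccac
Cdkn1a, chr17:29090729-29090978, plus strand: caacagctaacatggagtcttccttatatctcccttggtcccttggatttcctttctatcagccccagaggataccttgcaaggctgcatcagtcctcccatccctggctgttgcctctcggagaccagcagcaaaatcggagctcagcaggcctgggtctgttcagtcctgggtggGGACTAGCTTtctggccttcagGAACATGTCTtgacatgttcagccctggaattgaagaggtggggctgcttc
Eda2r, chrX:97377210-97377459, minus strand: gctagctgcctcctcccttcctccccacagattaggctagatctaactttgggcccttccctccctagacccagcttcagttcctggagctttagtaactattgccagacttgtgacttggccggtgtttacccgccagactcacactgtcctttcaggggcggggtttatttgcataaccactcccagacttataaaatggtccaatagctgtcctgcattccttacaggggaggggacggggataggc
Mdm2, chr10:117710759-117711008, minus strand: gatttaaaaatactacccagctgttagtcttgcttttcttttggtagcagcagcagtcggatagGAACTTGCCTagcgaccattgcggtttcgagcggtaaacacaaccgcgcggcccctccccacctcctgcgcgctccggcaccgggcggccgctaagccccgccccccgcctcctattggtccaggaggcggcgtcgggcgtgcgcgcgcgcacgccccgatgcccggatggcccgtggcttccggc
Ei24, chr9:36797335-36797584, minus strand: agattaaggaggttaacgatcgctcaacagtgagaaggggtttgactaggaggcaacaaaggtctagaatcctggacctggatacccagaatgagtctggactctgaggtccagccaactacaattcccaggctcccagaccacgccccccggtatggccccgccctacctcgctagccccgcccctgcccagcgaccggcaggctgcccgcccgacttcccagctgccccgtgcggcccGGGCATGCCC

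Of the 23 measured members with an upstream window in the RefSeq table, 8 held at least 1 half-site (34.8%), against 7.56% of all 16990 measured genes with a window. These were Ccng1, Mdm2, Cdkn1a, Sesn1, Ckap2, Ei24, Aen and Polk. Some members have several windows, and by window 8 of 34 held a half-site, against 7.13% of all 32851 windows. A full site, with 2 half-sites at most 13 bases apart, was present in the windows of 18 genes in the whole table, and Cdkn1a was the only measured member among them. Its half-sites GGACTAGCTT and GAACATGTCT lie 73 and 51 bases before the upstream start of this gene, with 12 bases between them. The stretch right after GAACATGTCT, tgacatgttc, misses the pattern only at its first base, a T, and so is not marked. The search therefore does not show which pair forms the known upstream p53 response element of Cdkn1a. The window before the downstream start of Cdkn1a held no half-site. The half-site of Ei24, GGGCATGCCC, ends at the base before its start. A match is a description of letters, and the window of Eda2r held none.

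Of the 30 measured genes, 25 had higher means in mutant lungs (83.3%, against 54.8% of all genes), and the median log2 difference was 0.10, against 0.01 over all genes. Two-sided limma with Benjamini-Hochberg adjustment over all 22180 genes called 2 members at an adjusted p under 0.05, Ccng1 and Eda2r, both higher, where 0.0631% of all genes were called. Trp53inp1 passed an adjusted p under 0.10, as did 0.257% of all genes. At an unadjusted p under 0.05 there were 8 higher members and 1 lower member (Btg2), where 7.34% of all genes were higher and 5.15% lower. In 8 members all mutant arrays lay above all controls, where this held for 10.6% of all genes, and in 2 all mutant arrays lay below, where it held for 8.83%. The remaining 20 overlapped. The list was chosen with earlier results of these arrays known, so these counts describe it and are no independent evidence of its direction. In each fit on 5 of the 6 arrays limma called 0 of the 22180 genes, and so 0 members. Between 1797 and 3084 genes, 8 to 10 members among them, had an unadjusted p under 0.05 in those fits.

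**Figure D1:**
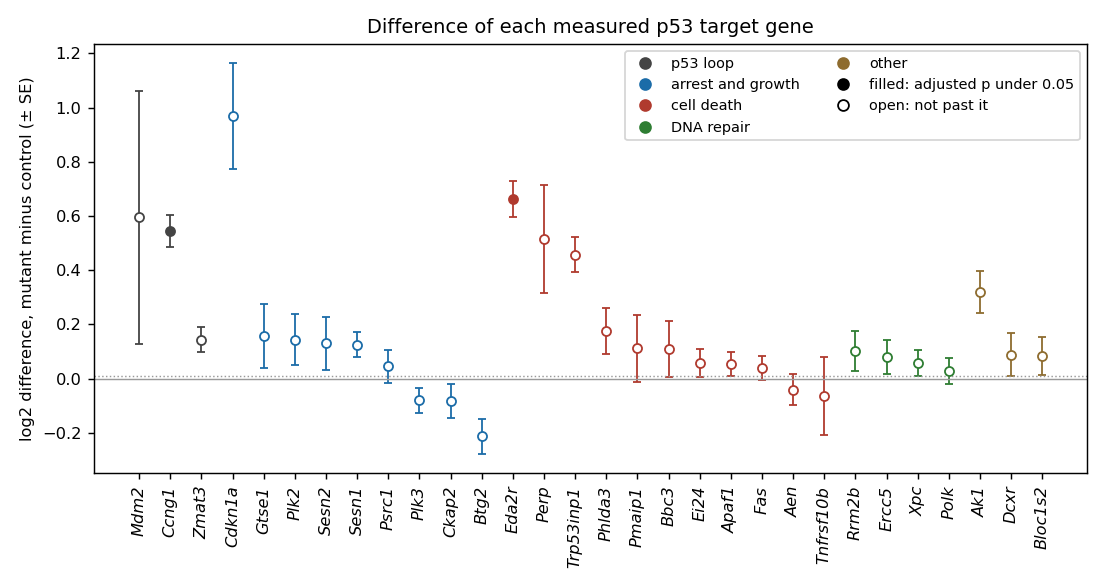
Log2 difference (mutant minus control) of each of the 30 measured p53 target genes, with limma's standard error, ordered within role groups. Points are filled where the adjusted p over all genes was under 0.05 (Ccng1 and Eda2r), and the dotted line is the median of all genes, 0.01; the widest error bar is that of Mdm2, 0.47.

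Of the p53 loop, Ccng1 was the clearest member. It encodes cyclin G1, which brings a phosphatase to Mdm2 and so modulates the loop. Its level was 11.22, 11.40 and 11.34 in mutant replicates 1, 2 and 3, against 10.80, 10.74 and 10.79 in control replicates 1, 2 and 3. All mutant values lay well above all controls, with a gap between the groups larger than the spread inside either (11.32 ± 0.09 in mutants and 10.77 ± 0.03 in controls, SD, n = 3 each). The log2 difference was 0.54 (SE 0.06, 1.46-fold, limma adjusted p = 0.0368). Without mutant replicate 2 the difference was 0.51, and the adjusted p ran from 0.00593 to 0.215 over 13 other settings. Ccng1 lies on chromosome 11, as do Fzd2 and another member, Dcxr.

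Mdm2, the ligase that degrades p53, had a mean difference like that of Ccng1, but 1 array made it. It stood at 10.01, 11.83 and 9.84 in mutant replicates 1, 2 and 3, against 9.91, 9.98 and 9.997 in control replicates 1, 2 and 3. Mutant replicate 2 was 1.87 log2 units above the control mean, while mutant replicates 1 and 3 lay 0.04 above and 0.13 below it. The log2 difference of 0.59 therefore had an SE of 0.47 (adjusted p = 0.619), and it was -0.04 without mutant replicate 2. Only 25 of 22180 genes stood further above their next highest array in mutant replicate 2 than Mdm2, which was 1.83 above it.

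The genes next to Mdm2 on chromosome 10 were read in the order of the reference gene table. Slc35e3, the next protein-coding gene, whose product belongs to the nucleotide sugar transporter family, stood at 10.21, 12.00 and 10.23 in mutant replicates 1, 2 and 3, against 10.27, 10.25 and 10.27 in control replicates 1, 2 and 3. It was thus 1.73 log2 units above the control mean in mutant replicate 2 alone, nearly as far as Mdm2. The genes on either side of this pair were not high there. Cpm, a membrane carboxypeptidase gene on the Mdm2 side, was at 8.54, 8.28 and 8.46 in mutant replicates 1, 2 and 3, against 8.39, 8.32 and 8.51 in the controls. Nup107, a nuclear pore gene on the Slc35e3 side, was at 10.67, 10.62 and 10.74 in the mutants, against 10.82, 10.82 and 10.76 in the controls. The small GTPase gene Rap1b and the RNA processing gene Cpsf6, 1 measured gene further out on each side, were 0.04 and 0.08 below their control means in that array.

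The same array had the highest summed level of adipose tissue genes. Fabp4, a fatty acid carrier of adipocytes, was at 6.73, 12.92 and 6.44 in mutant replicates 1, 2 and 3, against 6.08, 5.99 and 8.52 in the controls. Pparg, the master regulator of fat cell formation, was at 6.70, 10.49 and 6.76 in the mutants, against 6.77, 6.69 and 6.94 in the controls. Ucp1, which marks brown fat, was at 6.48 in mutant replicate 2 and between 6.29 and 6.52 on the other arrays. Whether the adipose signal has a part in the level of Mdm2 and Slc35e3 was not tested.

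**Figure D2:**
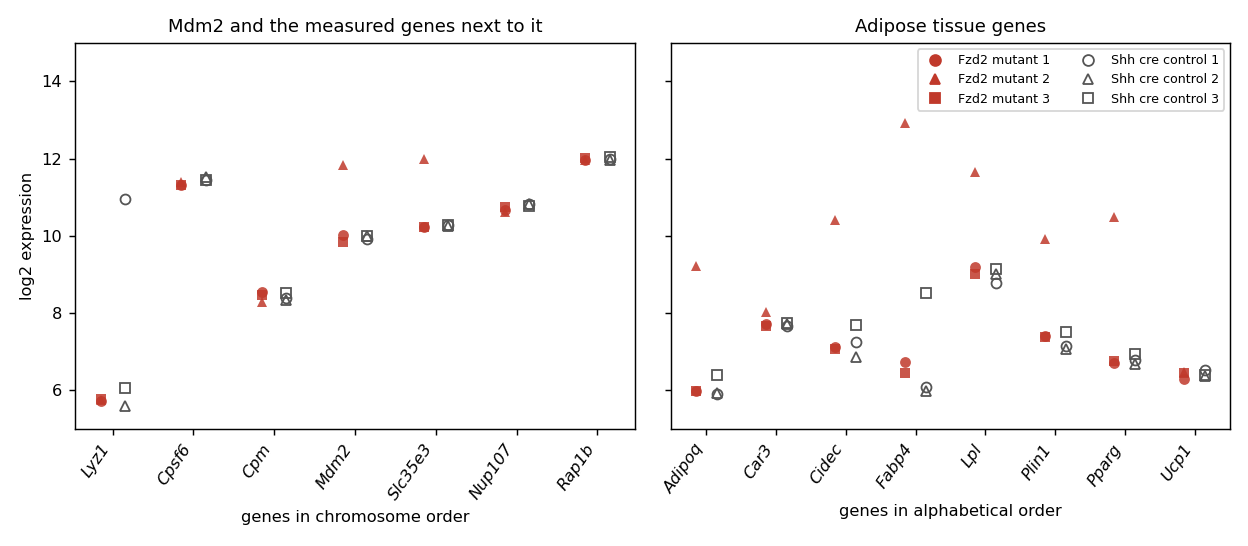
Log2 expression on each array of Mdm2 and the 3 measured genes on either side of it in chromosome order (left), and of 8 adipose tissue genes (right), with mutants as filled and controls as open symbols. Mdm2 (11.83) and Slc35e3 (12.00) stand out in mutant replicate 2 only, where Fabp4 is also highest (12.92, with 8.52 in control replicate 3), whereas Cpm, Nup107 and Rap1b do not; Lyz1 at the far left is high in control replicate 1 (10.96).

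Zmat3, the third gene of the loop, encodes an RNA-binding zinc finger protein. It stood at 8.26, 8.30 and 8.34 in mutant replicates 1, 2 and 3, against 8.14, 8.15 and 8.17 in the controls. The groups did not overlap, but the step was small (log2 difference 0.14, SE 0.05, adjusted p = 0.314).

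Among arrest and growth control genes, Cdkn1a had the largest difference of all 30 members. It encodes p21, the inhibitor of cyclin-dependent kinases through which p53 stops the cell cycle. Its level was 8.92, 9.46 and 8.72 in mutant replicates 1, 2 and 3, against 8.34, 7.99 and 7.87 in control replicates 1, 2 and 3. Every mutant lay above every control, yet the values were spread in both groups (9.03 ± 0.38 in mutants and 8.07 ± 0.25 in controls, SD, n = 3 each). The log2 difference was 0.97 (SE 0.19, 1.96-fold), which did not pass over all genes (limma adjusted p = 0.164, and 0.129 to 0.462 over 13 other settings). Without mutant replicate 2, the highest array, it was 0.76. Trp53cor1, a long noncoding RNA known as lincRNA-p21 and the measured gene next to Cdkn1a on chromosome 17, was at 8.01, 8.08 and 7.88 in mutants, against 7.62, 7.78 and 7.70 in controls (log2 difference 0.29, SE 0.07, adjusted p = 0.212). Srsf3 and Rab44, the next measured genes on either side of this pair, had log2 differences of -0.08 (SE 0.05) and 0.13 (SE 0.07).

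Btg2, an antiproliferative cofactor of mRNA deadenylation, had the opposite sign. It stood at 8.58, 8.71 and 8.51 in mutant replicates 1, 2 and 3, against 8.85, 8.77 and 8.82 in the controls, so that all mutants lay below all controls (log2 difference -0.21, SE 0.06, adjusted p = 0.294). The polo-like kinase gene Plk3 also lay below, at 7.80, 7.78 and 7.77 in mutants against 7.89, 7.82 and 7.88 in controls, by a log2 difference of -0.08 (SE 0.05, adjusted p = 0.501). Neither difference passed over all genes. Sesn1, a sestrin that restrains the growth kinase complex mTORC1, lay above, at 10.005, 9.999 and 10.07 in mutants against 9.87, 9.91 and 9.91 in controls (log2 difference 0.13, SE 0.05, adjusted p = 0.352). Its paralog Sesn2 overlapped, with a log2 difference of 0.13 (SE 0.10).

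The other arrest genes overlapped between groups. Plk2, a stress-induced polo-like kinase, was at 11.44, 11.21 and 11.56 in mutants against 11.20, 11.22 and 11.36 in controls (log2 difference 0.14, SE 0.09). Gtse1, a microtubule-binding protein of late cell cycle phases that restrains p53, was at 9.25, 9.07 and 8.80 in mutants against 8.98, 8.93 and 8.73 in controls (0.16, SE 0.12). The spindle genes Psrc1 and Ckap2 had log2 differences of 0.05 (SE 0.06) and -0.08 (SE 0.06). Of the 9 genes of this role 6 had higher and 3 had lower means, with a median log2 difference of 0.13, and 0 passed limma's threshold. At an unadjusted p under 0.05 there were 2 higher and 1 lower, where 7.34% of all genes were higher and 5.15% lower.

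**Figure D3:**
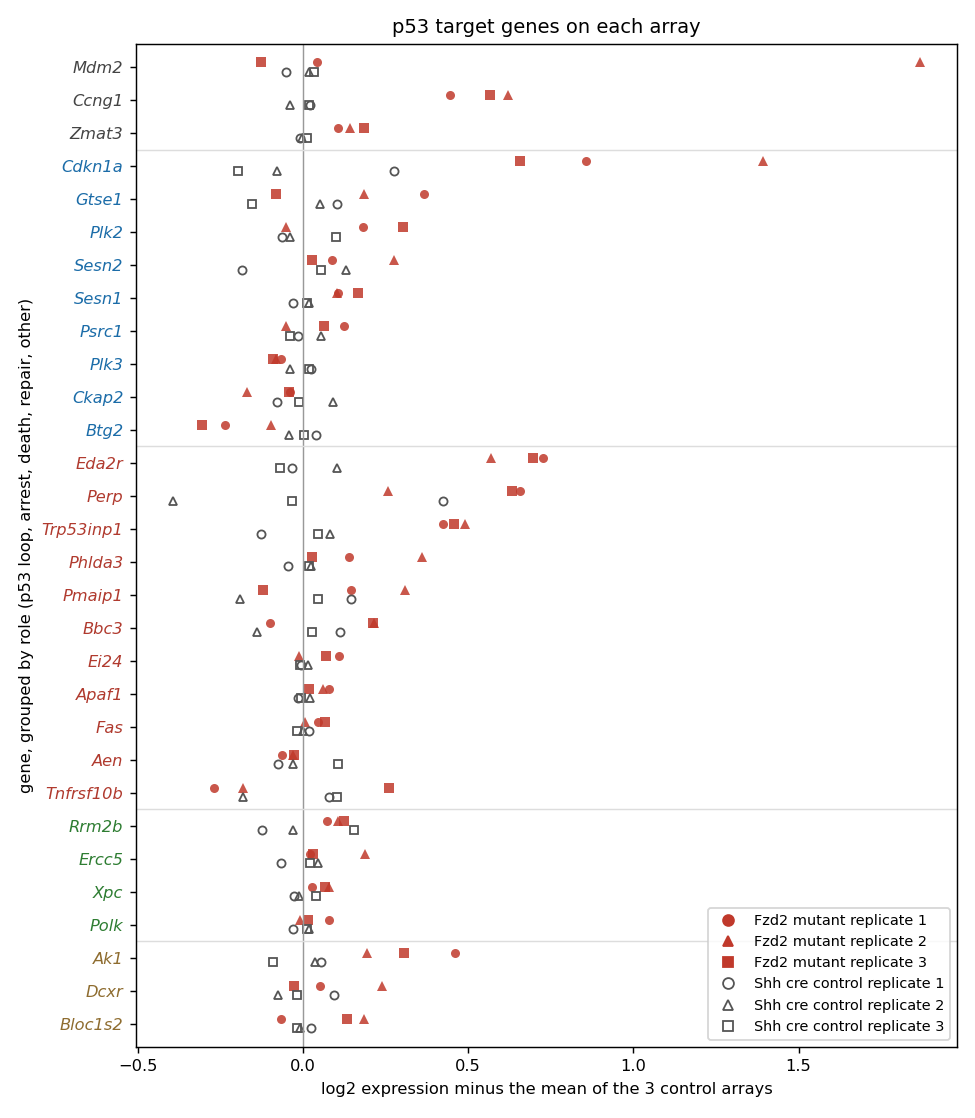
Log2 expression of each measured p53 target gene minus the mean of its 3 control arrays, by role group, with mutant arrays as filled and control arrays as open symbols. All mutant arrays lie above all controls for Ccng1, Zmat3, Cdkn1a, Sesn1, Eda2r, Trp53inp1, Phlda3 and Ak1 and below for Btg2 and Plk3, and Mdm2 is far from 0 in mutant replicate 2 alone.

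Of the cell death genes, Eda2r was called, and Trp53inp1 came next by p. Eda2r encodes the receptor of ectodysplasin A2, a member of the tumour necrosis factor receptor family. It stood at 7.21, 7.05 and 7.18 in mutant replicates 1, 2 and 3, against 6.45, 6.59 and 6.42 in control replicates 1, 2 and 3. These are low levels, with a mean over the 6 arrays at percentile 33.6 of all genes. All mutants lay above all controls, by more than the spread within either group (7.15 ± 0.08 in mutants and 6.49 ± 0.09 in controls, SD, n = 3 each). The log2 difference was 0.66 (SE 0.07, 1.58-fold, limma adjusted p = 0.0334), with adjusted p values of 0.0114 to 0.187 over 13 other settings. It was lowest among mutants in replicate 2, the array in which Mdm2 and Cdkn1a were highest, and without that array the difference was 0.71. Eda2r is X-linked, and without control replicate 2, the array with low Y-linked genes, the difference was also 0.71.

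Trp53inp1 encodes a stress-induced nuclear partner of p53. It was at 9.58, 9.64 and 9.61 in mutant replicates 1, 2 and 3, against 9.02, 9.24 and 9.20 in the controls. The mutants were nearly level with each other and above every control (log2 difference 0.46, SE 0.07, 1.37-fold, limma adjusted p = 0.0778, and 0.031 to 0.273 over 13 other settings). Phlda3, a repressor of Akt signalling, was at 9.58, 9.81 and 9.47 in mutants against 9.40, 9.47 and 9.47 in controls, so that mutant replicate 3 lay barely above the controls (log2 difference 0.18, SE 0.08, adjusted p = 0.441). Without mutant replicate 2 that difference was 0.08.

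Perp, a membrane protein gene of desmosomes and of p53-dependent death, was named after its values were seen. It was at 7.27, 6.87 and 7.24 in mutant replicates 1, 2 and 3, against 7.04, 6.22 and 6.58 in control replicates 1, 2 and 3. Control replicate 1 lay above mutant replicate 2, so the groups overlapped (log2 difference 0.52, SE 0.20, adjusted p = 0.365). Perp is also an epithelial gene, and the summed level of the epithelial markers was lower in every mutant than in every control, as given above. The part of epithelial content in the level of Perp was not tested.

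The best-known death genes among the targets overlapped between groups. Bbc3 and Pmaip1, which encode the BH3-only proteins PUMA and NOXA, had log2 differences of 0.11 (SE 0.10) and 0.11 (SE 0.12). Bbc3 was at 6.64, 6.95 and 6.95 in mutants against 6.85, 6.60 and 6.76 in controls, and Pmaip1 at 7.22, 7.39 and 6.96 against 7.22, 6.89 and 7.12. In neither gene was any array far from the rest. The death receptor genes Fas and Tnfrsf10b had log2 differences of 0.04 (SE 0.05) and -0.06 (SE 0.14), and Fas ran from 5.90 to 5.98 over all arrays. Apaf1, the scaffold of the apoptosome, Ei24, an endoplasmic reticulum protein gene, and Aen, a nuclease gene, had log2 differences of 0.05 (SE 0.05), 0.06 (SE 0.05) and -0.04 (SE 0.06). Of the 11 measured death genes 9 had higher means, with a median log2 difference of 0.11, and 1 passed limma's threshold.

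DNA repair genes had log2 differences between 0.03 and 0.10. Rrm2b, the p53-induced subunit of ribonucleotide reductase, was at 8.17, 8.21 and 8.22 in mutants against 7.97, 8.07 and 8.25 in controls, a log2 difference of 0.10 (SE 0.07, adjusted p = 0.596). Ercc5, which encodes the XPG nuclease of excision repair, was at 9.13, 9.30 and 9.14 in mutants against 9.04, 9.15 and 9.13 in controls (0.08, SE 0.06, adjusted p = 0.624). The control with the highest Rrm2b exceeded all mutants, and Ercc5 stood out, slightly, in mutant replicate 2. Xpc, the damage sensor, and the bypass polymerase gene Polk had log2 differences of 0.06 (SE 0.05) and 0.03 (SE 0.05). All 4 repair genes had higher means, with a median of 0.07, and 0 passed limma's threshold or an unadjusted p under 0.05.

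Of the 3 targets with other functions, the adenylate kinase gene Ak1 was at 8.62, 8.35 and 8.46 in mutant replicates 1, 2 and 3, against 8.21, 8.19 and 8.06 in the controls. Every mutant lay above every control (log2 difference 0.32, SE 0.08, 1.25-fold, adjusted p = 0.217). Bloc1s2, a subunit gene of a complex for lysosome-related organelles, was at 8.65, 8.90 and 8.85 in mutants against 8.74, 8.71 and 8.70 in controls (0.08, SE 0.07, adjusted p = 0.643). The carbonyl reductase gene Dcxr had a log2 difference of 0.09 (SE 0.08).

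Read 1 array at a time, the list held a like number of high genes in each mutant. Mutant replicates 1, 2 and 3 had 18, 18 and 17 of the 30 members above all 3 controls, where the share over all genes was 30.1%, 30.9% and 31.8%. The median of the members minus their control means was 0.08, 0.16 and 0.07 in these arrays, against 0.01, 0.00 and 0.01 over all genes. Each control set against the mean of the other 2 gave medians of -0.02, -0.003 and 0.02. Members at least 1 log2 unit above the control mean were present in mutant replicate 2 only, where they were Mdm2 and Cdkn1a, and 0.343% of all genes met that mark in this array, 0.0676% in mutant replicate 1 and 0.0541% in mutant replicate 3. Without mutant replicate 2 the median log2 difference of the members was 0.06, and 13 members had both mutants above all controls, where this held for 16.5% of all genes, and 2 had both below (12.3%). With control replicate 1 left out as well, 13 lay above and 3 below, where 26.5% and 18.9% of all genes did so.

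By role, the medians varied between arrays. In mutant replicate 2 the 9 arrest genes had a median of -0.05 although Cdkn1a was at its highest, and the 11 death genes had a median of 0.21. In mutant replicates 1 and 3 the medians of the arrest genes were 0.11 and 0.03, and those of the death genes 0.11 and 0.07. The repair genes had medians of 0.05, 0.09 and 0.05 in the 3 mutants. These differences between arrays were not tested.

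**Figure D4:**
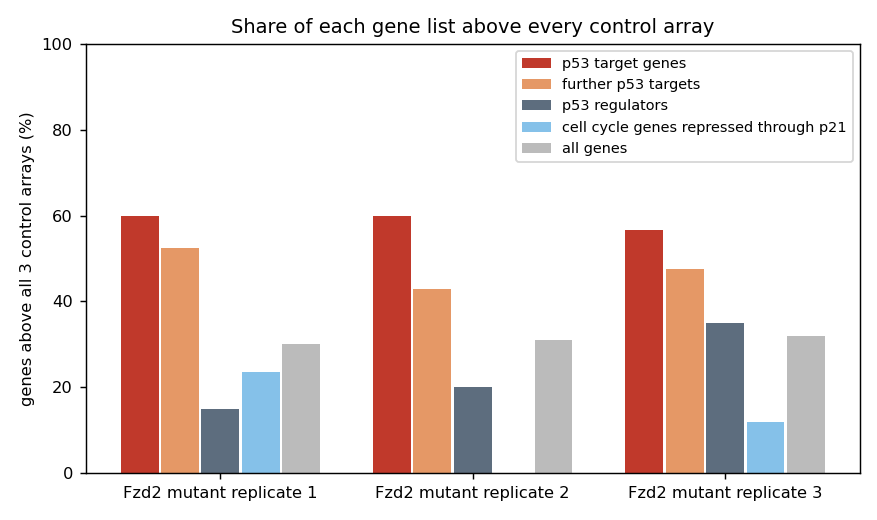
Share of the genes of each list that lay above all 3 control arrays, in percent, in each mutant array. For the p53 target genes it was 60.0%, 60.0% and 56.7% in mutant replicates 1, 2 and 3, against 30.1%, 30.9% and 31.8% of all genes.

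Of 20 upstream regulators of p53, 13 had lower and 7 had higher mutant means, where 54.8% of all genes had higher ones. The median log2 difference of the regulators was -0.06, and 0 passed limma's threshold. At an unadjusted p under 0.05 there were 1 higher and 1 lower regulator, where 7.34% of all genes were higher and 5.15% lower, and in 3 of the 20 all mutants lay below all controls, as in 8.83% of all genes. The 4 with the smallest p were Hipk2, a kinase that activates p53 (-0.21, SE 0.08), Twist1, a mesenchymal factor that represses the p53 response (0.24, SE 0.10), and the DNA damage kinase genes Atm (-0.10, SE 0.05) and Atr (-0.10, SE 0.05). Atm was at 9.87, 9.81 and 9.86 in mutants against 9.95, 9.92 and 9.98 in controls, and Atr at 10.09, 10.04 and 10.10 against 10.17, 10.13 and 10.22. In both kinase genes all mutants lay below all controls, by small steps. Mdm4, the partner of Mdm2 that blocks p53, had a log2 difference of -0.09 (SE 0.06), and its level did not stand apart in mutant replicate 2 (10.33, 10.36 and 10.46 in mutants against 10.43, 10.47 and 10.54 in controls).

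Of 21 further p53 targets that are no members, 14 had higher and 7 had lower means, where 54.8% of all genes had higher ones. The median of these 21 was 0.12. By limma 0 passed after adjustment. At an unadjusted p under 0.05 there were 7 higher and 1 lower, where 7.34% of all genes were higher and 5.15% lower. Beside Trp53cor1 the smallest p were those of Abhd4, a lipase gene (log2 difference 0.20, SE 0.05), Def6, an exchange factor gene (0.19, SE 0.06), and Cdip1, a proapoptotic gene, which had a lower mean (-0.16, SE 0.06). Abhd4 was at 9.997, 10.03 and 10.05 in mutants against 9.81, 9.89 and 9.79 in controls. In 6 of the 21 all mutants lay above all controls (10.6% of all genes), and in 1 all lay below (8.83%).

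Through p21 an active p53 is known to hold down genes of mitosis. Of 17 measured genes of that kind 15 had lower means, whereas 54.8% of all genes had higher ones. The median log2 difference of the 17 was -0.05, but it was -0.002 without mutant replicate 2. Set against the control means, their medians were -0.002, -0.11 and -0.02 in mutant replicates 1, 2 and 3. By limma 0 of the 17 passed over all genes or an unadjusted p under 0.05. Those with the smallest p were the checkpoint kinase genes Bub1b (-0.11, SE 0.05) and Bub1 (-0.09, SE 0.05), the transcription factor gene Foxm1 (-0.13, SE 0.06) and the survivin gene Birc5 (-0.11, SE 0.06). In mutant replicate 2, 13 of the 17 lay below all controls, against 5 in each of the other mutants, while over all genes 29.9% lay below in mutant replicate 2, 23.3% in mutant replicate 1 and 25.4% in mutant replicate 3. In that array 6 of 8 mesenchyme markers also lay below all controls, against 0 and 4 in mutant replicates 1 and 3, as did 3 of 5 endothelial markers, against 0 and 2, and all 10 epithelial markers, against 9 and 10. It is the array with the highest summed level of adipose genes. The part of these lists in the levels of the mitosis genes was not tested. Mki67, the proliferation marker, was at 12.41, 12.31 and 12.35 in mutants against 12.38, 12.51 and 12.35 in controls.

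In the mutants the means of 5 of 6 leukocyte and all 4 neuron markers were higher and those of all 10 epithelial markers lower, with the summed levels given above. Their part in the differences of Ccng1, Eda2r, Trp53inp1 and Cdkn1a was not tested. Without mutant replicate 2 and control replicate 1 together, the difference of Ccng1 was 0.52 and that of Eda2r 0.69. These are the arrays with the highest summed adipose and the highest summed intestinal level. Control replicate 3, which was kept, had a summed adipose level of 10.83, against 10.30 and 10.33 in control replicates 1 and 2, and Fabp4 at 8.52.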

How the data were processed

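RNA of whole E12.5 lung buds was measured on 6 arrays from 100 ng of total RNA each. The authors deposited log2 expression values in 1 table, for which the submitters' processing notes name oligo and RMA; versions and filters are not stated there. The log2 scale was inferred from the range, 3.55 to 14.04. Of 41345 probe sets, 23521 carried 1 gene symbol, 1814 several and 16010 none. Those with 1 symbol gave 22180 genes, the brightest probe set standing for a gene with several. Entrez identifiers of 23328 probe sets matched GRCm38.p6, with 0 symbols updated. Upstream sequences are RefSeq's on that build.

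Groups were set against each other in limma 3.58.1 under R 4.3.3 (lmFit and eBayes, no covariates, two-sided, Benjamini-Hochberg adjusted over all genes, threshold 0.05). Tested on simulated arrays of 22180 genes, it recovered 69 of 100 genes changed by 0.5 and 94 of 100 changed by 1 on the log2 scale. These counts check that the code finds set changes. They rest on normal noise drawn separately for each gene and on the number of genes changed, and do not estimate power in the real arrays. The p-values measure the spread between these arrays. Members, roles and gene lists were chosen with earlier results of these data known. Values of every array were given by rule for members under an adjusted p of 0.10, the p53 loop and the 2 members of each role with the smallest p; others given so were chosen after their values were seen. Of each further list, the 4 genes with the smallest p were named, and Mdm4, Mki67 and the neighbours of Cdkn1a were added after their values were seen. Same-numbered arrays did not deviate together (correlations over genes of -0.04, -0.06 and 0.07), so the replicate number served as a block only as an alternative. Other alternatives left out arrays or changed the normalization, dim filter, probe set summary, variance model or array weights. Plots were made in matplotlib 3.10.9 (Python 3.11.15).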

Additional observations from a re-analysis of the deposited data

How the results depend on the processing

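The count of 2 called members, of 14 genes called, was 0 without any single array (0 to 0) and 0 with both control replicate 1 and mutant replicate 2 left out, where limma called 0 of all genes too. It was 0 after a further quantile normalization, where 12 genes were called, and 10 members and 2481 of all 22180 genes were at an unadjusted p under 0.05. With the replicate block limma also called 0 members and 0 genes (9 members and 2511 genes at an unadjusted p under 0.05). The labels do not say whether arrays of the same number belong together. The count was 2 or 3 with the dim filter (25 genes called), averaged probe sets (18), the other variance model (46) and array weights (20). Members whose groups lay apart upward were 8 of 30, where this held for 10.6% of all genes. They numbered 13 without mutant replicate 2, where the share over all genes was 16.5%. Without that array and control replicate 1 they numbered 13, where it was 26.5%, so the share over all genes rose as well. With any 1 array left out they numbered 10 to 13, but of these sets the share over all genes was counted only without mutant replicate 2. With fewer arrays the groups of any gene lie apart more easily, so this range cannot be set against the 8. The median of the members, 0.10, ran from 0.06 (without mutant replicate 2) to 0.11. Of 30 members 24 kept their direction in every setting. Mdm2 turned to -0.042 without mutant replicate 2 (-0.042 to 0.955 over single arrays) and to -0.068 without that array and control replicate 1, where Sesn2 turned to -0.035, Ercc5 to -0.0083 and Tnfrsf10b to 0.035. Tnfrsf10b was 0.039 without mutant replicate 1 (-0.227 to 0.039), Aen 0.012 without control replicate 3 (-0.078 to 0.012), and Fas -0.0038 after quantile normalization. The cause of these changes was not tested. With 3 arrays per group, small shifts such as those of the repair genes lie within the spread between arrays.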
